A study of Mus musculus with 27 samples.

Results

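The genes of cobalamin (vitamin B12) uptake were examined in RNA-Seq counts from scraped mouse ileal epithelium. They were 6 of the 46078 genes in the count tables, taken by their Ensembl identifiers: *Cubn*, *Amn*, *Dab2*, *Tcn2*, *Cd320* and *Lmbrd1*. The tissue came from the distal ileum of 27 male C57BL/6 mice at postnatal day 56, with 3 mice in each of 9 groups. One group was gavaged with sesame oil vehicle, and the others with the dioxin TCDD at 30, 10, 3, 1, 0.3, 0.1, 0.03 or 0.01 µg/kg, every 4 d for 28 d. TCDD is a persistent ligand of the aryl hydrocarbon receptor (AhR), and the dose range asks at which exposure a gene departs from vehicle. Scrapings hold epithelium of every type together with some lamina propria, so each value is a level in a mixed tissue. The mice were co-housed, and the labels used here do not give cages.

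Cobalamin travels through the gut lumen bound to intrinsic factor. In the distal ileum the complex is bound by cubilin, a large peripheral protein of the enterocyte brush border, which has no membrane anchor of its own and is held and carried by the transmembrane protein amnionless. The pair is taken up through clathrin-coated pits, intrinsic factor is degraded in lysosomes, cobalamin leaves the lysosome through the LMBRD1 and ABCD4 proteins, and it enters the blood on transcobalamin, the product of *Tcn2*. Other cells take up transcobalamin through the receptor CD320.

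In GENCODE M21 (GRCm38), the build of the deposited counts, *Cubn* (ENSMUSG00000026726) lies at chr2:13276338-13491813 on the minus strand and *Amn* (ENSMUSG00000021278) at chr12:111271095-111276426 on the plus strand. *Tcn2* (ENSMUSG00000020432) lies at chr11:3917192-3932159 on the minus strand, and the other 3 lie on the plus strand, *Dab2* (ENSMUSG00000022150) at chr15:6299788-6440712, *Cd320* (ENSMUSG00000002308) at chr17:33843091-33849774 and *Lmbrd1* (ENSMUSG00000073725) at chr1:24678630-24766301. All 6 are protein-coding. *Gm13270*, a transcript on the other strand of *Cubn*, shares 1.85% of the 50-base stretches of the *Cubn* transcripts but had at most 55 counts in a mouse, against at least 21495 for *Cubn*. Whether the counting used strand is not given in the sources used here.

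RefSeq promoter windows (GRCm38.p6) were read for 5 of the 6 genes, each running from 250 bases before to 50 bases after an annotated start. *Tcn2* had no entry. The windows of both receptor genes are shown because these were the members with a trend over dose, and a *Cd320* window because it held the most matches to the AhR core motif. Capitals mark GCGTG or its reverse complement CACGC, the core of the element that AhR and ARNT are known to bind, and CACGTG, the E-box that CLOCK and BMAL1 are known to bind. The E-box was added after the values were seen.
Cubn promoter, chr2:13491827-13492126, minus strand: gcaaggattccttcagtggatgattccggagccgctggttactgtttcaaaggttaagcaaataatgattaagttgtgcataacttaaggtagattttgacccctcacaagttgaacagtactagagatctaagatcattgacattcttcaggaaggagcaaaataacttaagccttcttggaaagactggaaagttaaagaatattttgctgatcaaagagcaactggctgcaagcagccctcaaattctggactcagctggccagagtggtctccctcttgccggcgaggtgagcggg
Amn promoter, chr12:111270846-111271145, plus strand: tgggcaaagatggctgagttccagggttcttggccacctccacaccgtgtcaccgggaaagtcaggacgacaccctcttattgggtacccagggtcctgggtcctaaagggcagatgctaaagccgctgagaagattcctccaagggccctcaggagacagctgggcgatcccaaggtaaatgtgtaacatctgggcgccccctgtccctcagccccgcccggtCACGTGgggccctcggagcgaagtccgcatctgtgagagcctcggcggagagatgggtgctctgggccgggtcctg
Cd320 promoter, the downstream window, chr17:33843176-33843475, plus strand: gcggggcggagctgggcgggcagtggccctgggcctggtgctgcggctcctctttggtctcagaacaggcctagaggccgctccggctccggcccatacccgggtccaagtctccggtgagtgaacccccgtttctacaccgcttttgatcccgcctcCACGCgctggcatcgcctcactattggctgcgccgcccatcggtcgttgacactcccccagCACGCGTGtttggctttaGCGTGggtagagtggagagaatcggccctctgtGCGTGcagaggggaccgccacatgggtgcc

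Neither the *Cubn* nor the *Amn* window held GCGTG or CACGC, letters found in 32.4% of 32851 such windows. The *Amn* window held the E-box CACGTG, which begins 26 bases before the start and is in 7.15% of all windows, and the *Cubn* window did not. The *Cd320* window shown held 5 core matches, 2 of which overlap in CACGCGTG. The other *Cd320* window held 1, the windows of *Lmbrd1* held 3 and 0, and those of *Dab2* held 1 and 0. These are matches of letters in short windows and not bound sites.

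Depth ranged from 12.26 to 17.14 M counts on genes per mouse. The labelled doses were checked on *Cyp1a1*, the standard AhR target. It had 0 to 3 counts per vehicle mouse, 59 to 103 counts per mouse given 1 µg/kg, and 14821 to 27996 per mouse given 30 µg/kg. Markers of ileal enterocytes were present in every mouse (6 of 6 detected), as were those of smooth muscle, fibroblasts, endothelium, macrophages, plasma cells and T lymphocytes, with no marker at 0 in every mouse. The library indexes appear to have been used in 2 rounds, an inference from the deposited labels of the libraries and not a batch that the submitters name. Vehicle, all doses up to 0.3 µg/kg and 1 mouse at 1 µg/kg belong to the first use (16 mice), and the other 11 mice to the second, so only 1 µg/kg holds both, and elsewhere the use of the indexes cannot be told apart from dose. A score of 11 clock genes also moved with dose, from −1.07 to −0.88 in vehicle to between 0.12 and 1.21 at 1 µg/kg and above. It did not follow dose in every mouse. Mouse 14, given 0.01 µg/kg, had 0.68, and the mice at 0.3 µg/kg had −0.53 to −0.1.

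Levels per length were compared first, as RPKM (CPM, the counts per M counts of a library, divided by the exon length in kilobases), since *Cubn* has 14935 bases of exon and *Amn* 1843. In vehicle mice *Cubn* stood at 130.6 ± 36.3 RPKM (SD, n = 3) and *Tcn2* at 127.2 ± 8.71 RPKM. *Amn* followed at 34.5 ± 3.62 RPKM and *Lmbrd1*, the lysosomal cobalamin exporter, at 14.4 ± 1.15 RPKM. *Cd320* was at 0.573 ± 0.0347 RPKM and *Dab2*, an adaptor that links cubilin and megalin to clathrin in other absorptive epithelia, at 0.457 ± 0.0554 RPKM. The mRNA of the receptor and of the carrier was thus abundant in ileal epithelium, and that of the adaptor and of the transcobalamin receptor gave only 7 to 67 counts per mouse. *Cubn* exceeded *Amn* per length by a ratio of 3.75 ± 0.716 in vehicle, although the proteins act as a pair.

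**Figure D1:**
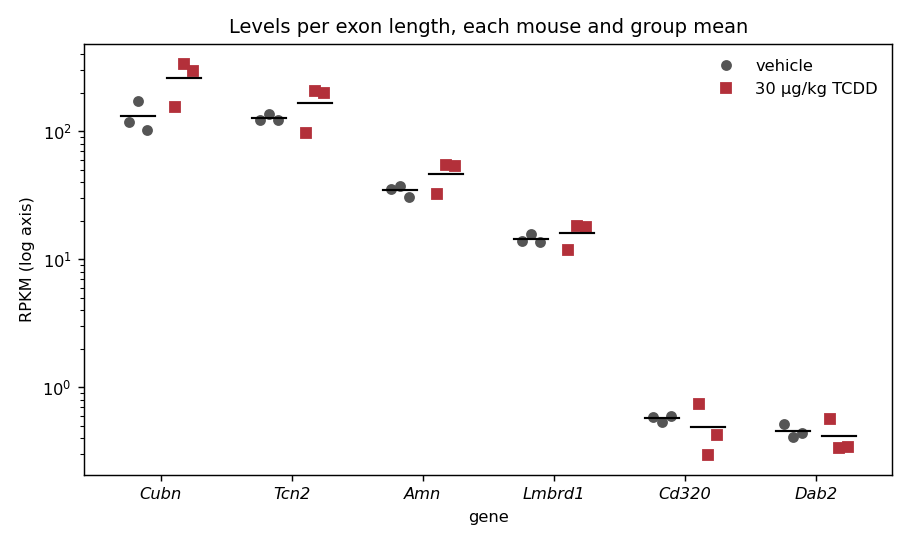
RPKM on a log axis for the 6 genes, ordered by their vehicle mean, in vehicle mice (grey circles) and mice at 30 µg/kg TCDD (red squares), with a bar at each mean of 3 mice. *Cubn* and *Tcn2* average 130.6 and 127.2 RPKM in vehicle, while *Cd320* and *Dab2* lie below 1 RPKM in both groups.

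*Cubn* was higher at 30 µg/kg than in vehicle. The vehicle mice had 1767.2, 2560.5 and 1524.8 CPM, with library sizes scaled by TMM. At 30 µg/kg mouse 65 had 2302 CPM, and the others had 5039.9 and 4407 CPM, so 2 of the 3 exceeded every vehicle mouse and mouse 65 lay inside the vehicle range. The fit across all genes gave a 2.01-fold rise (log2 fold change 1.00, SE 0.233, 95% interval 0.52 to 1.49, adjusted p = 0.00448). It was the only member that was called, which took a fold change no smaller than 1.5 besides an adjusted p no larger than 0.05. At this dose 9.4% of the 16741 genes tested were called either way, and 5.42% of those tested were called higher. The 1 call among 6 members says nothing of the members as a group. Without mouse 65 the log2 fold change was 1.25. In a bulk sample, more cells that express a gene and more RNA per cell cannot be told apart.

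Between vehicle and 0.3 µg/kg the 15 mice stayed within 1524.8 and 2560.5 CPM of *Cubn*, with a median of 1908.3. The 12 mice at 0.01 to 0.3 µg/kg lay between 1555.3 and 2482 CPM, inside the range of the vehicle mice. At 1 µg/kg the mice had 3262.9, 2748.2 and 2603.9 CPM, and at 3 µg/kg they had 2892.8, 3190.4 and 3592.2 CPM. All 3 mice at each of these doses exceeded all vehicle mice, as did 10.3% of genes at 1 µg/kg and 12.4% at 3 µg/kg (exact permutation test, two-sided p = 0.1, the smallest that 3 against 3 allows). In the fit the changes missed the limit, at 1.47-fold (log2 0.56, adjusted p = 0.271, where 0.591% of genes were called) and 1.65-fold (log2 0.72, adjusted p = 0.125, where 1.11% were called). At 10 µg/kg the mice had 2006.7, 2301.5 and 3433.3 CPM, which overlapped vehicle again, and the fold change was 1.32 (adjusted p = 0.394, where 2.53% were called). At each of the 4 doses from 0.01 to 0.3 µg/kg 0 members and 0% of genes were called.

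The order of the *Cubn* group means was therefore 30, 3, 1, 10, 0.1 and 0.3 µg/kg, vehicle, 0.03 and 0.01 µg/kg, from 3916.3 to 1872.6 CPM. Each of the 8 neighbouring pairs in this order overlapped in the values of their mice. The difference among the 9 groups as a whole passed the test (adjusted p = 0.00846, a limit that 9.53% of genes passed), which no other member did. Against the rank of the dose, *Cubn* rose by 0.12 log2 per step (SE 0.022, adjusted p = 9.31e-05).

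**Figure D2:**
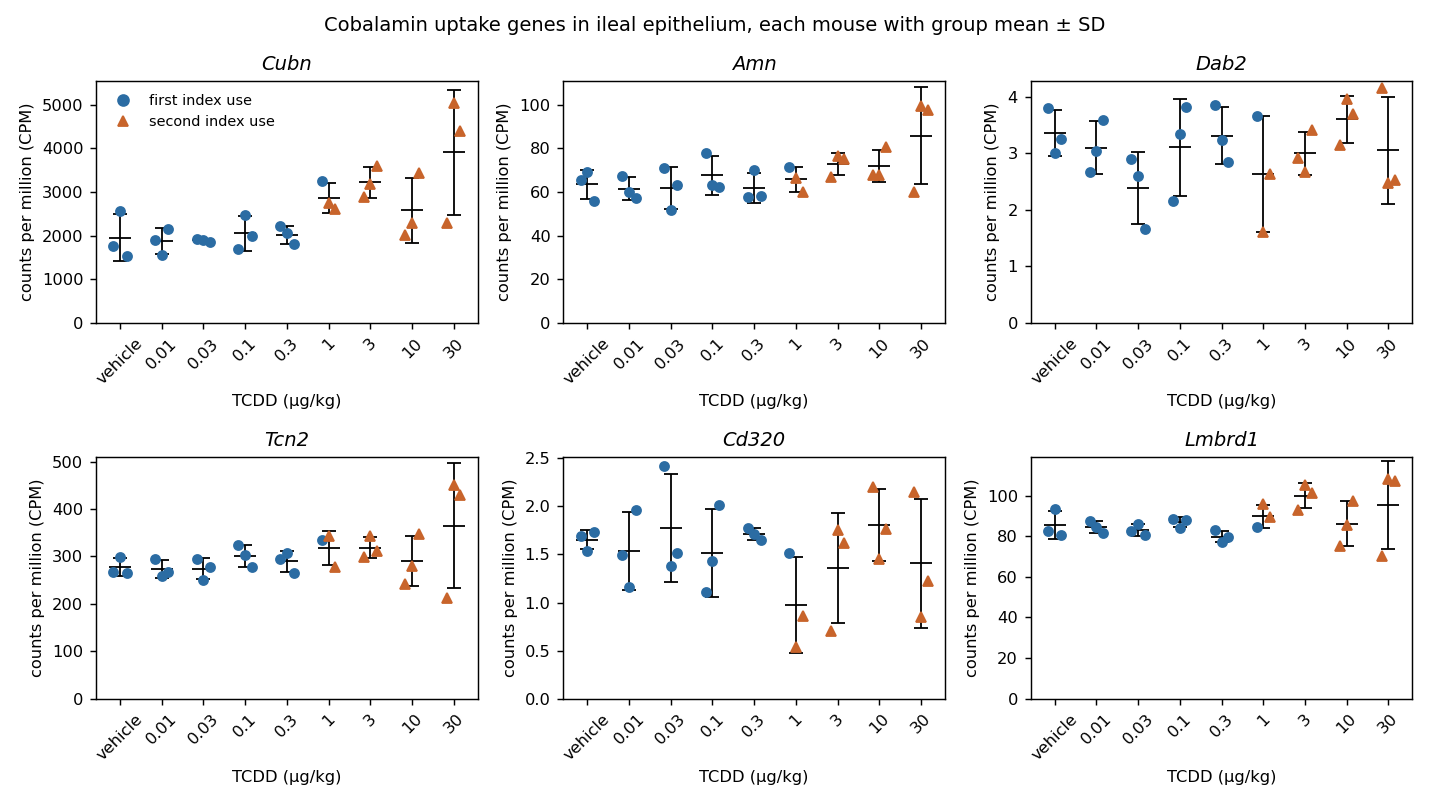
CPM of each gene in each of the 27 mice by TCDD dose, with black bars at the group mean ± SD of 3 mice. Blue circles are libraries of the first index use and orange triangles those of the second. *Cubn* lies between 1524.8 and 2560.5 CPM up to 0.3 µg/kg and reaches 5039.9 CPM at 30 µg/kg, where mouse 65 is the lowest point of that dose in the panels of *Cubn*, *Amn*, *Tcn2* and *Lmbrd1*.

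At 1 µg/kg, the dose that holds both index uses, the mouse of the first use had 3262.9 CPM beside 2748.2 and 2603.9 CPM in the 2 mice of the second. Within the first use the trend of *Cubn* was 0.08 log2 per step (adjusted p = 0.372) and within the second 0.14 (adjusted p = 0.601), in 16 and 11 mice. In the first use the 15 mice up to 0.3 µg/kg lay between 1524.8 and 2560.5 CPM. Only the 1 mouse at 1 µg/kg lay above them, so that slope leans on it. Few genes passed there at all, 0.144% and 1.44%, against 26.2% over all mice. With index use as a covariate the change at 30 µg/kg was 1.29 log2 (adjusted p = 0.0922). With the clock score as a covariate it was 0.42 log2 (adjusted p = 0.69). Over all genes the count called at this dose fell from 1574 to 482 with index use and to 14 with the clock score. That score was −1.07 to −0.88 in vehicle and 1.06 to 1.16 at 30 µg/kg, so this fit can hardly separate it from dose. Between doses of the second index use, 30 against 3 µg/kg gave 0.28 log2 for *Cubn* (adjusted p = 0.647), and 0 members were called between these doses, beside 0.89% of genes. Between 10 and 3 µg/kg 0 members were called either, beside 0.0418% of genes.

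*Amn*, the membrane anchor of cubilin, moved less. The vehicle mice had 65.6, 69 and 56.1 CPM, while at 30 µg/kg *Amn* stood at 60.2, 99.5 and 97.8 CPM. Again 2 of 3 mice exceeded vehicle and mouse 65 did not. The change passed the adjusted p, with 17.8% of genes, but was 1.35-fold and under the fold minimum (log2 0.43, SE 0.151, 95% interval 0.12 to 0.74, adjusted p = 0.0489). Without mouse 65 it was 0.60 log2 (adjusted p = 0.00109), past both limits. With index use or the clock score as a covariate it was 0.61 and 0.41 log2 and missed the adjusted p (0.245 and 0.567). Over the fits that left out 1 mouse, the log2 change of *Amn* ran from 0.31 to 0.60, the highest that without mouse 65. The change also missed the adjusted p without vehicle mouse 2 (0.0948) or 3 (0.0632) and with library size alone (0.125). The same held with no filter on low counts (0.0531) and in the 6 mice alone (0.216). The adjusted p passed with upper-quartile scaling (0.0399), at least 10 counts in every mouse (0.0364) and DESeq2 (0.0397). At 3 and 10 µg/kg *Amn* gave log2 changes of 0.20 and 0.18 (adjusted p = 0.622 and 0.602). *Amn* had the other trend among the members that passed, a rise of 0.05 log2 per dose step (SE 0.013, adjusted p = 0.00808), so 2 of 6 members rose with dose rank beside 13.4% of all genes. Without the mice at 30 µg/kg the slope was 0.03 and did not pass (adjusted p = 0.0816), while that of *Cubn* did.

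The ratio of *Cubn* to *Amn* per length was 3.75 ± 0.716 in vehicle and 4.06 ± 0.597 at 0.3 µg/kg. It was 5.38 ± 0.261 at 1 µg/kg, 5.46 ± 0.407 at 3 µg/kg, 4.37 ± 0.825 at 10 µg/kg and 5.51 ± 0.764 at 30 µg/kg (SD, n = 3 each). The highest ratio in a vehicle mouse was 4.58, and the lowest was 5.12 at 1 µg/kg, 5.14 at 3 µg/kg and 4.72 at 30 µg/kg. How often other pairs of genes separate from vehicle in this way was not computed. These ratios are a description, with no test. At 10 µg/kg the mice overlapped vehicle.

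**Figure D3:**
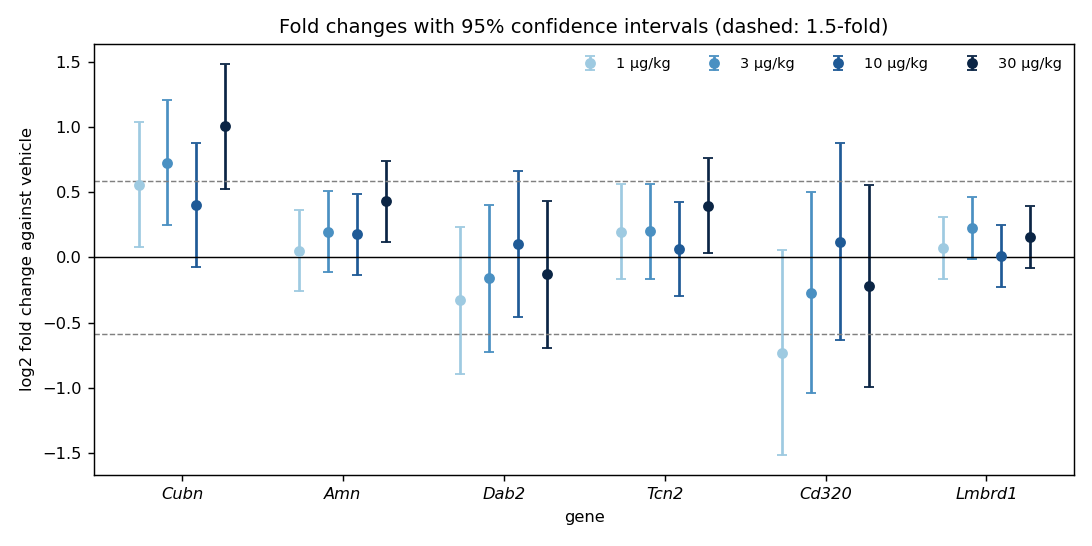
Log2 fold changes against vehicle with 95% confidence intervals from the fit across all genes, for each member at 1, 3, 10 and 30 µg/kg TCDD (light to dark blue). Dashed lines mark 1.5-fold. The *Cubn* interval at 30 µg/kg, from 0.52 to 1.49, lies furthest above 0, and the intervals of *Dab2* and *Cd320* span 0 at every dose.

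*Tcn2* encodes transcobalamin, the plasma carrier onto which absorbed cobalamin is loaded. The vehicle mice had 267, 298.9 and 265.1 CPM, while at 30 µg/kg *Tcn2* stood at 212.8, 450.7 and 429.9 CPM. Mouse 65 was the lowest of all 27 mice and the other two the highest. The change at 30 µg/kg was 0.40 log2 (SE 0.176, adjusted p = 0.125) and 0.64 log2 without mouse 65 (adjusted p = 0.000381). At 3 µg/kg the mice had 299.6, 342.7 and 312 CPM, all above vehicle, as for 12.4% of genes, with a log2 change of 0.20 (adjusted p = 0.682). The slope over dose rank was 0.04 log2 per step and did not pass (adjusted p = 0.0513). It passed with upper-quartile scaling (0.046), with at least 10 counts in every mouse (0.0395) and with DESeq2 (0.0426).

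*Lmbrd1* was at 82.4, 93.4 and 80.8 CPM in vehicle and at 70.3, 108.1 and 107.4 CPM at 30 µg/kg. Its log2 change at 30 µg/kg was 0.15 (SE 0.116, 95% interval −0.08 to 0.39, adjusted p = 0.385). The order of mice at this dose was the one seen for *Amn* and *Tcn2*, with mouse 65 the lowest. Here it lay below vehicle, as for *Tcn2*, and the others lay above.

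*Dab2* had 21 to 67 counts per mouse. It stood at 3.8, 3.01 and 3.25 CPM in vehicle and at 4.15, 2.48 and 2.52 CPM at 30 µg/kg, with mouse 65 now the highest of the 27. The log2 change was −0.13 (95% interval −0.70 to 0.43, adjusted p = 0.788). All 3 mice at 0.03 µg/kg lay below vehicle, as for 5.55% of genes. Any change within this interval is compatible with the values of these 3 mice per group, and no detection limit was computed.

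*Cd320* had 7 to 31 counts per mouse, 1.69, 1.54 and 1.73 CPM in vehicle. At 1 µg/kg it had 1.52, 0.538 and 0.857 CPM, all below vehicle, as for 10.2% of genes, and the log2 change was −0.73 (SE 0.381, 95% interval −1.52 to 0.06, adjusted p = 0.396). At 30 µg/kg the values of 2.15, 0.851 and 1.22 CPM lay on both sides of vehicle (log2 −0.22, adjusted p = 0.733), with mouse 65 again the highest of its group.

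Mouse 65, the lowest of its group for *Cubn*, *Amn*, *Tcn2* and *Lmbrd1*, was also low in the sum of 8 general enterocyte markers. Single markers are not given by mouse. *Cdx2* and *Hnf4a* varied little at 30 µg/kg (238.7 ± 13.9 and 1243.4 ± 135.7 CPM). The 8 markers (*Vil1*, *Alpi*, *Fabp2*, *Epcam*, *Krt20*, *Anpep*, *Cdx2* and *Hnf4a*) summed to 18515.2 to 19572.1 CPM in vehicle mice. They summed to 14695.3 CPM in mouse 65, the lowest of all mice, and to 30343.9 and 28371.3 CPM in its group mates, the highest. The sum of the 6 ileal enterocyte markers went the other way within this group. It was 2785 CPM in mouse 65 and 2380.2 and 2187.5 CPM in its group mates. *Fabp6*, the most abundant of the 6 in vehicle, averaged 1696.4 CPM there and 882.3 ± 538.1 CPM at 30 µg/kg. *Slc10a2* rose, from 358.5 to 601.2 CPM, so the sum does not speak for each marker. In vehicle mice these 6 summed to 2843.7 to 3138.7 CPM. Mouse 65 also had 345.4 CPM of smooth muscle markers, against 78.6 and 36.2 CPM in its group mates and 25 to 109.5 CPM in vehicle, and 49.8 CPM of endothelial markers, against 30.7 to 41.7 CPM in vehicle. Plasma cell markers were 478.2 to 923.1 CPM at 30 µg/kg and 1649.9 to 2150.5 CPM in vehicle, with 3 of 5 called lower. The part of these other cell types in the members' values was not tested. None of the 8 enterocyte markers was called at 30 µg/kg, and their log2 changes ran from −0.10 to 0.52, the highest that of *Anpep*, the brush border aminopeptidase that made up 49.6 to 60.5% of the sum.

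Members were therefore also expressed per 1000 CPM of the summed enterocyte markers, a ratio formed after the values were seen and given with no test. *Cubn* was 95.4, 130.8 and 82.4 on this scale in vehicle mice and 156.6, 166.1 and 155.3 at 30 µg/kg. All 3 mice at 30 µg/kg were then above all vehicle mice, mouse 65 included, as for 4.12% of genes on this scale, and the mean was 1.55 times that of vehicle. At 1, 3 and 10 µg/kg 2, 1 and 1 of the 3 mice were above all vehicle mice, so the separation in CPM at 1 and 3 µg/kg was not seen on this scale. *Tcn2* was 14.4, 15.3 and 14.3 in vehicle and 14.5, 14.9 and 15.2 at 30 µg/kg, a mean 1.01 times that of vehicle. *Amn* was 3.54, 3.53 and 3.03 in vehicle and 4.09, 3.28 and 3.45 at 30 µg/kg, 1.07 times vehicle. *Lmbrd1* was 0.893 times vehicle at 30 µg/kg. At 3 µg/kg *Tcn2* was 12.8 to 13.2, a mean 0.891 times that of vehicle, so its higher CPM there was not seen on this scale. *Lmbrd1* at 3 µg/kg was 3.94 to 4.29, against 4.36 to 4.77 in vehicle. *Dab2* (0.0996 to 0.145 against 0.154 to 0.205) and *Cd320* (0.0311 to 0.0683 against 0.0787 to 0.0935) also lay below vehicle at 3 µg/kg. The marker sum itself was higher at this dose, at 22785.7 to 26674.6 CPM against 18515.2 to 19572.1 CPM in vehicle. The share of genes that lay below vehicle on this scale at 3 µg/kg was not computed. Relative to the markers, then, *Cubn* stood apart from vehicle at 30 µg/kg, and *Tcn2*, *Amn* and *Lmbrd1* overlapped vehicle at that dose.

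**Figure D4:**
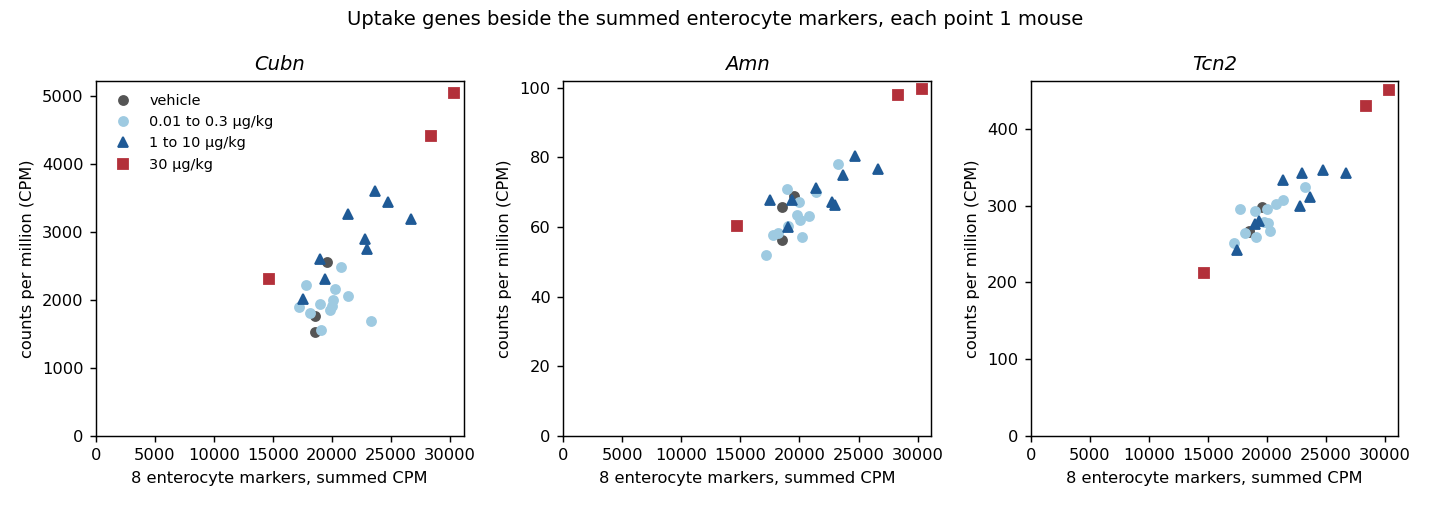
CPM of *Cubn*, *Amn* and *Tcn2* against the summed CPM of 8 enterocyte markers, 1 point per mouse, with vehicle in grey, 0.01 to 0.3 µg/kg in light blue, 1 to 10 µg/kg in dark blue and 30 µg/kg as red squares. *Tcn2* follows the marker sum through all 3 mice at 30 µg/kg (14.5 to 15.2 per 1000 CPM of markers), and *Cubn* per 1000 CPM of markers is higher at 30 µg/kg than in vehicle (155.3 to 166.1 against 82.4 to 130.8).

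The genes most like each member across mice were found by Pearson's r of log2 CPM over all 27 mice, given as a description, since mice share dose, index use and tissue makeup. *Cubn* was most like *Dpep1* (r = 0.956), *Enpep* (0.927) and *Cers2* (0.921), of which DPEP1 and ENPEP are peptidases anchored in the brush border. *Dpep1* and *Enpep* were 0.69 and 0.65 log2 higher at 30 µg/kg (adjusted p = 0.00401 and 0.00432), both called, beside 9.4% of all genes. *Cers2* was 0.35 log2 higher (adjusted p = 0.0375), under the fold minimum. Since these genes were picked for likeness to *Cubn* over the same mice, a change like that of *Cubn* follows from the choice and adds no support. *Amn* was most like *Pepd* (0.919), *Cndp2* (0.91) and *Espn* (0.907), a prolidase, a cytosolic dipeptidase and an actin bundler of microvilli. *Tcn2* was most like *Selenop* (0.947), *Cdhr2* (0.947) and *Anpep* (0.94), and *Lmbrd1* like *Heph* (0.873), *Cdhr2* (0.868) and *Anpep* (0.866), among them a protocadherin of microvillus tips and the basolateral ferroxidase hephaestin. *Anpep* was also 49.6 to 60.5% of the enterocyte marker sum, so the ratio of *Tcn2* to that sum is not independent of its correlation with *Anpep*.

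*Dab2* was most like *Plvap* (0.828), *Eng* (0.811) and *Kdr* (0.808), which are genes of endothelial cells, and none of its nearest genes was an enterocyte marker. *Cd320* was most like *Gm38211* (0.788), *Fastkd1* (0.771) and *Sgsh* (0.769). Between members, r was 0.85 for *Amn* and *Tcn2*, 0.83 for *Tcn2* and *Lmbrd1*, 0.76 for *Cubn* and *Tcn2* and 0.74 for *Cubn* and *Amn*. *Dab2* and *Cd320* gave r = 0.59 with each other and from −0.49 to −0.04 with the other members. As deviations from group means and without the mice at 30 µg/kg, *Amn* and *Tcn2* still gave 0.77 over 24 mice, and *Cubn* and *Amn* 0.31.

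The remaining genes of the cobalamin path were examined as a list of 16, of which 14 were tested. None was called at any dose, and none passed the test of any difference among groups. Their median log2 change at 30 µg/kg was −0.09, beside 0.02 over all genes. Under the adjusted p alone 2 passed at 30 µg/kg and both are named after their values were seen: *Abcd4*, which works with LMBRD1 at the lysosome (log2 0.41, adjusted p = 0.0309), and *Hcfc1*, a transcriptional coregulator of *Mmachc* (log2 −0.40, adjusted p = 0.00605). *Cblif*, which encodes intrinsic factor, a product of the stomach, had 0 to 4 counts per mouse. *Lrp2*, which encodes megalin, the partner of cubilin in kidney, had 0 to 10. Both were too low to test.

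**Figure D5:**
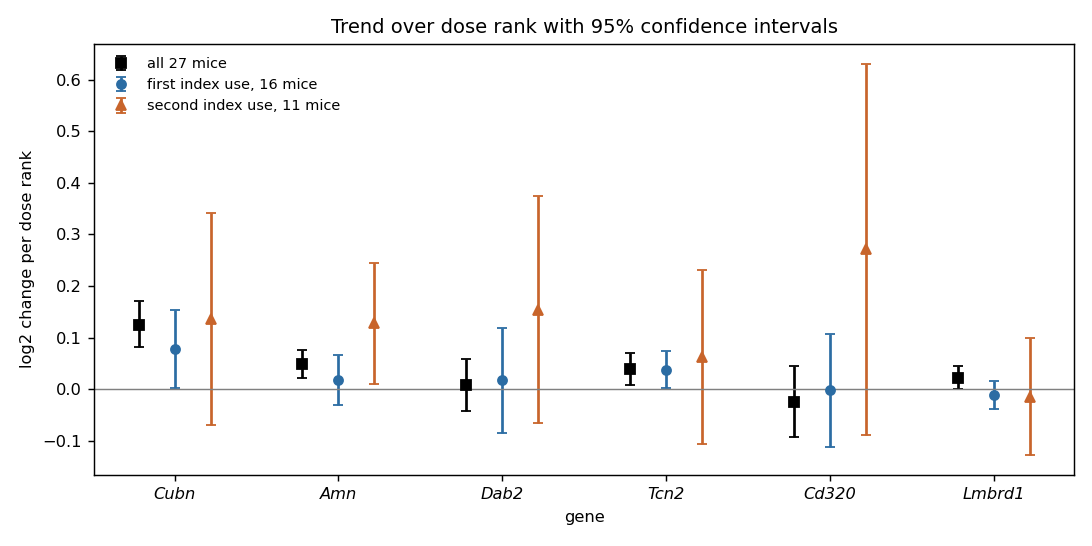
Slope over dose rank in log2 per step with 95% confidence intervals, for all 27 mice (black squares), the 16 mice of the first index use (blue circles) and the 11 of the second (orange triangles). The slope of *Cubn* is 0.12 over all mice, 0.08 within the first use and 0.14 within the second, and the intervals within the second use are the widest for every member. In the first use only the 1 mouse at 1 µg/kg (3262.9 CPM) lies above 2560.5 CPM of *Cubn*.

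Of 15 genes of clathrin endocytosis none was called at any dose from 10 µg/kg up, with a median log2 change of 0.00 at 30 µg/kg. The members furthest from 0 were *Rab11a*, a recycling endosome GTPase (−0.32, adjusted p = 0.0191), *Dnm2*, the dynamin that cuts vesicles free (0.30, adjusted p = 0.0917), and *Ap2s1* of the AP-2 adaptor (−0.26, adjusted p = 0.0745). Of 12 genes of the methionine cycle and propionate breakdown, where cobalamin acts as a cofactor, 2 were called lower at 30 µg/kg and 0 higher, beside 9.4% of all genes called either way. These were *Bhmt*, which remethylates homocysteine with betaine and without cobalamin (2.92 ± 0.436 CPM in vehicle and 0.281 ± 0.178 CPM at 30 µg/kg, log2 −3.34, adjusted p = 9.06e-05), and *Shmt2*, the mitochondrial serine hydroxymethyltransferase (log2 −0.91, adjusted p = 0.00514). *Bhmt* lost its call with the clock score as a covariate (−2.45, adjusted p = 0.234). *Shmt2* lost it without vehicle mouse 4 (adjusted p = 0.0565), with index use as a covariate (−0.66, adjusted p = 0.408), with the clock score (−0.89, adjusted p = 0.365) and in the 6 mice alone (adjusted p = 0.11). *Cbs*, at 0 to 23 counts per mouse, gave −0.69 (adjusted p = 0.645).

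Transporters of other vitamins were tested as 9 of 10 genes, and at 30 µg/kg 2 were called higher and 1 lower, beside 9.4% of all genes called. *Slc5a6*, the sodium-dependent carrier of biotin and pantothenate, rose from 34.4 ± 6.33 to 58.7 ± 14.3 CPM (log2 0.77, adjusted p = 0.0342). *Slc52a2*, a riboflavin carrier named after its value was seen, rose from 81 ± 13 to 127 ± 26.9 CPM (log2 0.65, adjusted p = 0.00305). *Slc46a1*, the proton-coupled folate carrier, fell from 11 ± 1.08 to 6.54 ± 1.42 CPM (log2 −0.75, adjusted p = 0.032). *Slc19a1*, the reduced folate carrier, also named after its value was seen, went from 18.4 ± 0.0934 to 27.3 ± 4.99 CPM and passed the adjusted p but not the fold minimum (log2 0.57, adjusted p = 0.0152). *Slc23a1*, an ascorbate carrier, went from 1.09 ± 0.329 to 4.01 ± 3.92 CPM, with a log2 change of 1.87 that did not pass (adjusted p = 0.0688). *Slc5a6* lost its call without vehicle mouse 2 or 4 or without mouse 67 or 68 (adjusted p from 0.0763 to 0.196), and *Slc46a1* without vehicle mouse 2 or 4 or without mouse 65 or 67 (0.0734 to 0.0977). With the clock score as a covariate *Slc5a6* gave −0.04 and *Slc46a1* 0.01 log2 (adjusted p = 0.981 and 0.997). With index use as a covariate *Slc46a1* lost its call (adjusted p = 0.484), and both did in the 6 mice alone (0.0626 and 0.0699).

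Of 6 genes typical of ileal enterocytes, 1 was called higher and 2 lower at 30 µg/kg, beside 9.4% of all genes called, with a median log2 change of −0.11. The bile acid uptake carrier *Slc10a2* gave 0.75 log2 (adjusted p = 0.0339), the bile acid binding protein *Fabp6* −0.94 (adjusted p = 0.012) and the hormone gene *Fgf15* −3.24 (adjusted p = 0.00113). *Slc10a2* lost its call without any 1 of 5 mice (vehicle mice 2, 3 and 4 and mice 67 and 68, adjusted p from 0.069 to 0.17) and *Fabp6* without mouse 67 (0.0857) or 68 (0.0692). With index use as a covariate *Slc10a2* gave 0.23 log2 (adjusted p = 0.838) and *Fabp6* lost its call (adjusted p = 0.293), as both did in the 6 mice alone (0.138 and 0.177). With the clock score as a covariate *Slc10a2*, *Fabp6* and *Fgf15* all lost their calls (adjusted p = 0.598, 0.466 and 0.257).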

How the data were processed

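RNA-Seq libraries were prepared from ileal epithelium scrapings of 27 mice with a kit for total RNA. The authors trimmed adaptors (Trimmomatic 0.33), aligned reads to GRCm38 (TopHat2 2.1.0 with Bowtie2) and deposited raw counts per Ensembl gene for each mouse, without normalization. HTSeq 0.6.1 is listed in the submitters' processing notes, and its options are not given in the sources used here. If reads with several alignments or genes were left out, as is usual for this tool, genes with shared sequence are undercounted. Depth was 12.26 to 17.14 M counts on genes per mouse, and rows that name no gene were left out: 44.48 to 49.52% of uniquely aligned reads matched no feature and 0.61 to 1.02% were ambiguous. All 27 same-dose pairs of mice differed by more than sampling noise (chi-square per degree of freedom 6.99 to 74.26).

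Genes were tested with edgeR 4.0.16 in R 4.3.3 (filterByExpr, 16741 genes; TMM; quasi-likelihood fit with 9 groups and no covariate). Each dose was compared with vehicle, with Benjamini-Hochberg adjustment over all tested genes, and genes were called where the adjusted p was no larger than 0.05 and the fold change no smaller than 1.5, the fold limit of the study. Its P1(*t*) statistic was not recomputed, and the adjusted p took its place. The trend was fitted on the rank of the dose, and any difference among the groups by an F test. RPKM was CPM divided by the exon length in GENCODE M21. Exact permutation tests compared 3 mice with 3 (smallest p 0.1). Log2 CPM used a prior count of 2. The clock score is the signed mean over 11 clock genes.

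The members and the gene lists were chosen with earlier results of these data known. Named beside the members were *Cyp1a1*, other cobalamin genes that were called, passed the test among groups or were too low to test, up to 3 genes of each of 4 other lists that stood furthest from no change at 30 µg/kg, and the 3 tested genes most like each member. *Abcd4*, *Hcfc1*, *Slc19a1* and *Slc52a2* fall outside that rule. Alternatives were DESeq2 1.42.0, upper-quartile and library-size scaling, other filters, adjusted p alone, the 6 mice compared alone, index use or clock score as a covariate, subsets of mice and leaving out each mouse.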

Additional observations from a re-analysis of the deposited data

How the results depend on the processing

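No paired analysis was possible because the labels give no replicate numbers that the groups share. Where a cause is not named here, the cause was not tested. The count of members called was 0 at every dose below 3 µg/kg and at 10 µg/kg under each alternative run. At 3 µg/kg *Cubn* was called, as 1 member, with no filter on low counts (log2 0.72, adjusted p = 0.0288), in a fit of only the 6 mice compared (0.73, adjusted p = 0.0331) and with DESeq2 (0.73, adjusted p = 0.0386). At 30 µg/kg the count of members was 0 with index use as a covariate, 0 with the clock score as a covariate and 0 in the 6 mice compared, where *Cubn* kept a log2 change of 1.01 (adjusted p = 0.104) on fewer samples, and 2 by the adjusted p alone. The count with a trend fell to 0 with either covariate and 0 within either index use, was 1 without the mice at 30 µg/kg, and was 3, with *Tcn2*, under upper-quartile scaling, at least 10 counts in every mouse and DESeq2. The count that differed among groups fell to 0 with either covariate.

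Leaving out 1 mouse gave 0 to 1 members called at 3 µg/kg, where *Cubn* passed without vehicle mouse 3 (log2 0.96, adjusted p = 0.0469), 1 to 3 at 30 µg/kg and 2 to 4 with a trend. The highest counts came without mouse 65, when *Amn* and *Tcn2* were called and *Tcn2* (0.05 per step, adjusted p = 0.00334) and *Lmbrd1* (0.03, adjusted p = 0.022) had a trend. The trend of *Tcn2* also passed without any 1 of mice 3, 26, 44, 57 and 58 (adjusted p from 0.0219 to 0.0497). *Cubn* ranged from 0.78 to 1.25 log2 at 30 µg/kg and was called each time.

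From the lowest dose to the highest, edgeR called 0, 0, 0, 0, 99, 185, 423 and 1574 genes, with 699, 591, 1037 and 1247 at an unadjusted p under 0.05 at the lower 4 doses. Leaving out 1 mouse gave, in the same order, 0 to 1, 0, 0 to 1, 0 to 1, 12 to 107, 67 to 225, 208 to 450 and 878 to 2508. Without vehicle mouse 4 the counts were 12, 72, 217 and 993 at 1, 3, 10 and 30 µg/kg, and without vehicle mouse 2 they were 30, 92 and 226 at the first 3 of these. At 1 µg/kg the count was 52 without mouse 41 and 51 without mouse 44, and at 3 µg/kg 110 without mouse 51 and 67 without mouse 52. It was 208 at 10 µg/kg without mouse 59, and at 30 µg/kg 2508 without mouse 65 and 878 without mouse 67. Upper-quartile scaling, library size alone and at least 10 counts in every mouse gave 1 gene each at 0.3 µg/kg. No filter gave 3, 8, 31, 169 and 308 genes at 0.01, 0.1, 0.3, 1 and 3 µg/kg, and DESeq2 gave 3, 5, 18 and 168 at 0.01, 0.1, 0.3 and 1 µg/kg. Index use as a covariate left 31, 6, 48 and 482 genes at 1, 3, 10 and 30 µg/kg, and the clock score 0, 0, 4 and 14. The adjusted p alone gave 151, 285, 636 and 2976. Fits of 6 mice gave 2, 3, 344 and 667 genes at 0.03, 0.3, 3 and 30 µg/kg.

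Directions turned for the called genes *Slc5a6* and *Slc46a1* and for values that had not passed. With index use as a covariate *Dab2* and *Cd320* gave 0.64 and 0.87 log2 at 30 µg/kg, *Cd320* 0.055 and *Lmbrd1* −0.011 per dose step. With the clock score *Cubn* gave −0.17 at 10 µg/kg, *Slc5a6* −0.039, *Slc46a1* 0.006 and *Dab2* −0.047 per step. Library size alone gave *Dab2* −0.003 per step. Within the first index use *Lmbrd1* gave −0.012 per step, and within the second *Cd320* gave 0.27 and *Lmbrd1* −0.015. Leaving out single mice moved *Cd320* between −0.704 and 0.035 and *Cbs* between −2.538 and 0.469 at 30 µg/kg, *Tcn2* between −0.093 and 0.184 at 10 µg/kg and *Dab2* between −0.005 and 0.019 per step. The counts of *Dab2* and *Cd320*, 7 to 67 per mouse, limit what could be measured for them.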
